A study of Homo sapiens with 6 samples.

Results

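Integrins are paired receptors of an alpha and a beta chain that hold cells to the extracellular matrix. Inside the cell, talin and kindlin bind the tail of the beta chain, tensins and the ILK, PINCH and parvin complex join them, and vinculin, alpha-actinin and filamin tie the site to actin, while the kinase FAK and the adaptors paxillin and BCAR1 pass on signals. The genes described here are 37 members of this machinery, of 25330 counted symbols. They comprise 9 integrin alpha chains, 7 beta chains, 4 tensins, 2 talins with the kindlin FERMT2, ILK with LIMS1 and 2 parvins, the kinase PTK2 with the adaptors PXN, BCAR1 and CAV1, 4 actin linkers and 2 filamins. They were taken by name from a list. That list was drawn up with earlier results of these data known.

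The measurements are raw gene counts from 6 poly-A RNA libraries of MDA-MB-231, an established triple-negative breast cancer line, all under the same batch label and with no treatment. The 3 control libraries carry the genotype label CTRV2 control and the 3 others the label RNASEH2A KO, a knockout of the catalytic subunit of RNase H2. Within a group the libraries come from different passages, and the labels leave unsaid if the knockout cells are a clone or a pool. The p-values below therefore cover only differences among passages. Library totals ran from 25419877 to 31596286 counts. RNASEH2A itself had 6 to 15 counts in control and 7 to 16 in knockout libraries, so its level does not check the labels and every direction below rests on them. The line's own markers were present, with VIM at 735 ± 27.2 CPM (counts scaled to library totals adjusted by TMM, mean ± SD, n = 3) in controls and 721 ± 38.5 in knockouts. Of the 6 line markers 1 passed edgeR's test, KRT18, which was lower in knockouts (log2 fold change -0.28, adjusted p = 0.0130). Of 7 tested luminal markers SPDEF (-2.34, adjusted p = 0.000186) and AGR2 (-2.55, adjusted p = 0.00747) fell, while the oestrogen receptor gene ESR1 was at 0 in all 6 libraries, and the list summed to 573 to 627 CPM in control and 550 to 584 CPM in knockout libraries. Of 3 tested basal and myoepithelial markers ACTA2 (1.30, adjusted p = 0.0138) and OXTR (0.64, adjusted p = 0.00316) rose, with KRT5 at 0 and the list at 22.4 to 25.2 and 34.4 to 41.2 CPM. The part of these markers in the adhesion gene differences was not tested. Knockout replicate 1 stood apart: without it 23.8% of all tested genes passed in place of 12.1%, and without replicate 1 of both groups 30.4% did. Its deviations from the group mean over all tested genes correlated with those of control replicate 1 (0.32).

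Tensins, which bind integrin tails and actin filaments, showed the largest differences, with TNS4 and TNS1 much lower in knockout libraries. Among integrins, the chains ITGA2, ITGA5, ITGB1 and ITGB8 fell and ITGB4 rose. Of the remaining genes, the filamin FLNC fell and the adaptor BCAR1 rose, while neither talin, the kindlin FERMT2, PARVA nor any actin linker passed. BCAR1 did not pass once the median change of its 20 nearest tested genes was subtracted. ITGB1 lost its call in 9 of the 17 alternative analyses described below. Of the 37 members 33 had enough counts to be tested, and 9 of these passed edgeR's quasi-likelihood test at an adjusted p under 0.05 (Benjamini-Hochberg over all tested genes), with 2 higher and 7 lower. The call was at least 2-fold for 3 members (TNS4, TNS1 and ITGB8), beside 2.37% of all tested genes. The 9 are 27.3% of the tested members, beside 12.1% of all 14199 genes with enough counts (5.88% higher, 6.22% lower). The median log2 fold change of the tested members was 0.06, against 0.00 for all genes, and the median size was 0.17 in both. An unadjusted edgeR p under 0.05 was found for 18 of the 33 and for 27.7% of all tested genes. Control and knockout values did not overlap for 8 members with higher and 10 with lower knockout values, beside 16.1% and 17.4% of all tested genes, together 33.5%. Without knockout replicate 1, 14 members and 23.8% of all tested genes passed, and without replicate 1 of both groups 20 members and 30.4%. Without control replicate 3 or knockout replicate 3, 6 members passed, beside 3.79% and 3.61% of all tested genes. TNS1 was tested only because its control libraries were counted, so the share that passed is a description of the tested members and not of all 37.

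**Figure D1:**
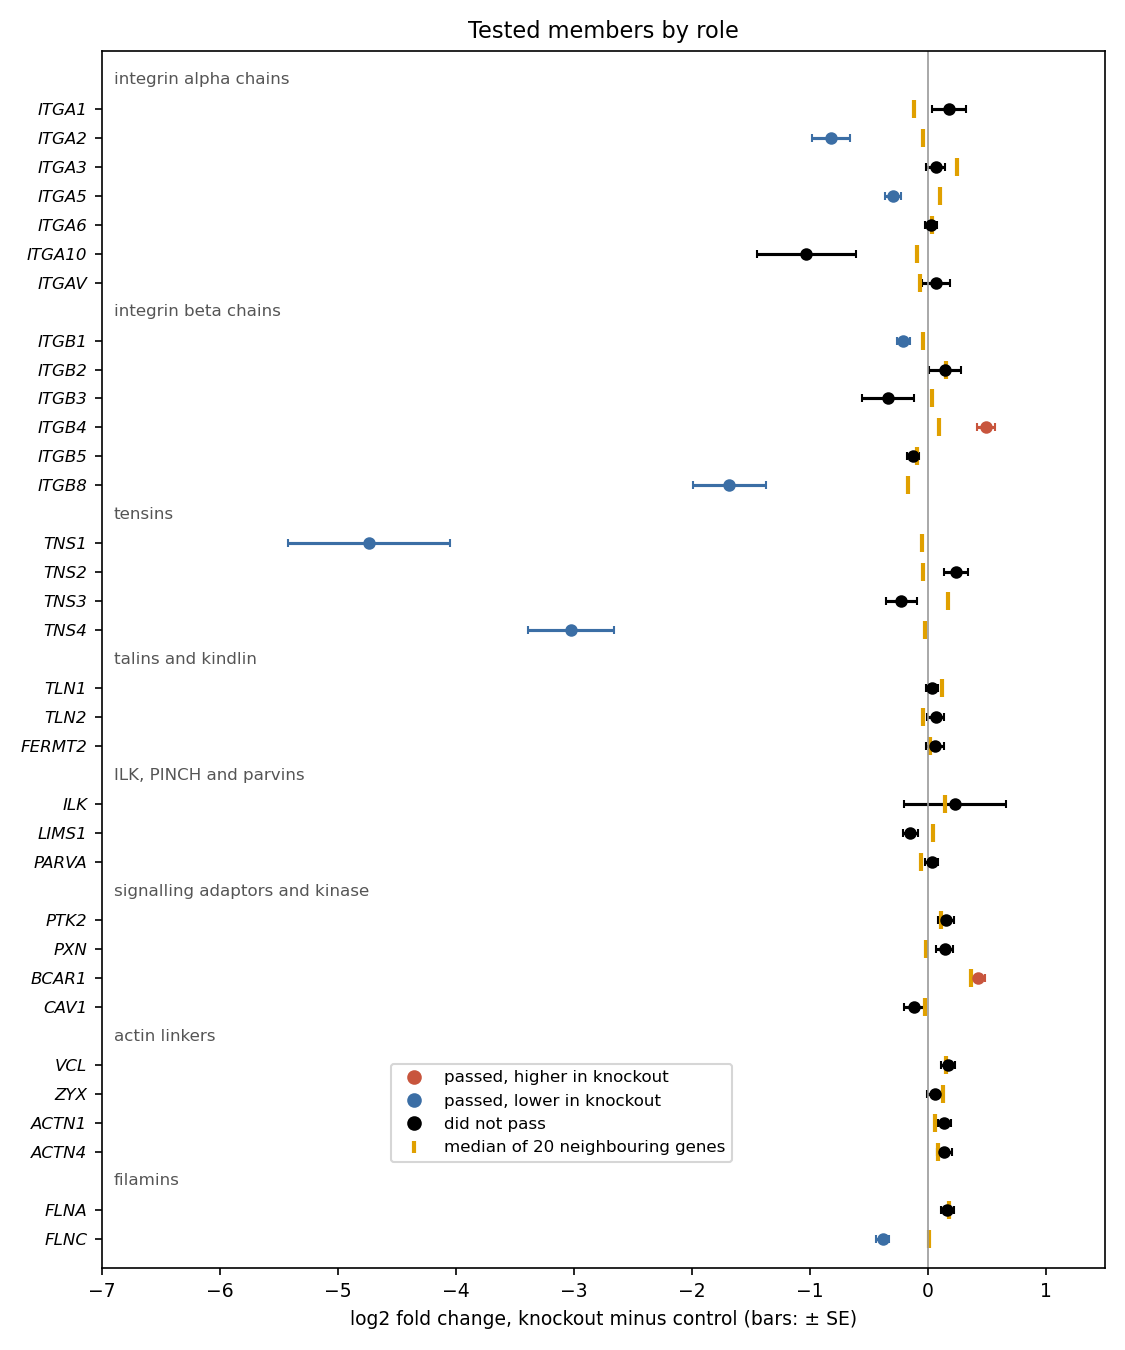
Log2 fold change (knockout minus control, x axis) of the 33 tested members, by role, with bars of ± SE and a yellow tick at the median of the 20 nearest tested genes. TNS1 (-4.73) and TNS4 (-3.02) lie far to the left, and most black points, which did not pass, lie close to 0.

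TNS4 is a short tensin that lacks the actin-binding part of its relatives (chromosome 17, 40475828 to 40501597, minus strand, GENCODE 29 on GRCh38). It stood at 78.9, 75.5 and 78.4 CPM in the control libraries and at 17.2, 4.67 and 6.49 CPM in the knockout libraries. The controls were tightly grouped, and all knockout libraries lay far below them, with replicate 1 the highest of the 3. The fall was 8.13-fold (log2 fold change -3.02 ± 0.37 SE, edgeR adjusted p = 0.00139), and without knockout replicate 1 the log2 fold change was -3.80. In libraries from bulk cells, fewer cells with the transcript and less of it per cell cannot be told apart.

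TNS1, the first known tensin and an actin-capping adhesion protein, was scarce in controls and nearly absent in knockouts (chromosome 2, 217799588 to 218033982, minus strand). Control replicates 1 to 3 gave 72, 88 and 50 counts, and knockout replicates 8, 0 and 0. All 8 knockout counts came from replicate 1, and a count of 0 at this depth allows up to 0.108 CPM in replicate 2 and 0.107 CPM in replicate 3, counting error only. The fitted log2 fold change was -4.73 ± 0.68 SE (edgeR adjusted p = 0.00306), a size that depends on how counts near 0 are treated.

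TNS3, the most abundant tensin per length, had 249, 219 and 230 CPM in controls and 247, 160 and 190 CPM in knockouts. Knockout replicate 1 lay within the control range and the other 2 knockout libraries below it. It did not pass (-0.22 ± 0.13 SE, edgeR adjusted p = 0.311), but did without knockout replicate 1 (-0.41, adjusted p = 0.00315). TNS2 was at 48.6 ± 3.29 and 57.2 ± 7.32 CPM (SD, n = 3) with no overlap between the groups, and did not pass (0.24 ± 0.10 SE, edgeR adjusted p = 0.163).

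Divided by the merged exon length in GENCODE 29, levels can be set side by side across genes, and the make-up of the tensin family then differed between the groups. TNS4 supplied 31.7%, 33.4% and 33.5% of the summed per-length tensin level in the control libraries. In knockout libraries it supplied 8.78%, 3.64% and 4.46%. Each knockout share lay under each control share. TNS3 made up 51.3% ± 0.781 of the controls and 66.5% ± 1.59 of the knockouts, and TNS2 15.4% ± 0.460 and 27.9% ± 2.98 (SD, n = 3). TNS4 thus lay above TNS2 per length in controls (19.1 ± 0.450 against 8.98 ± 0.608 CPM per kb) and below it in knockouts (2.32 ± 1.66 against 10.6 ± 1.35). Shares within a family rise for one gene when another falls, so they add no test of their own.

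**Figure D2:**
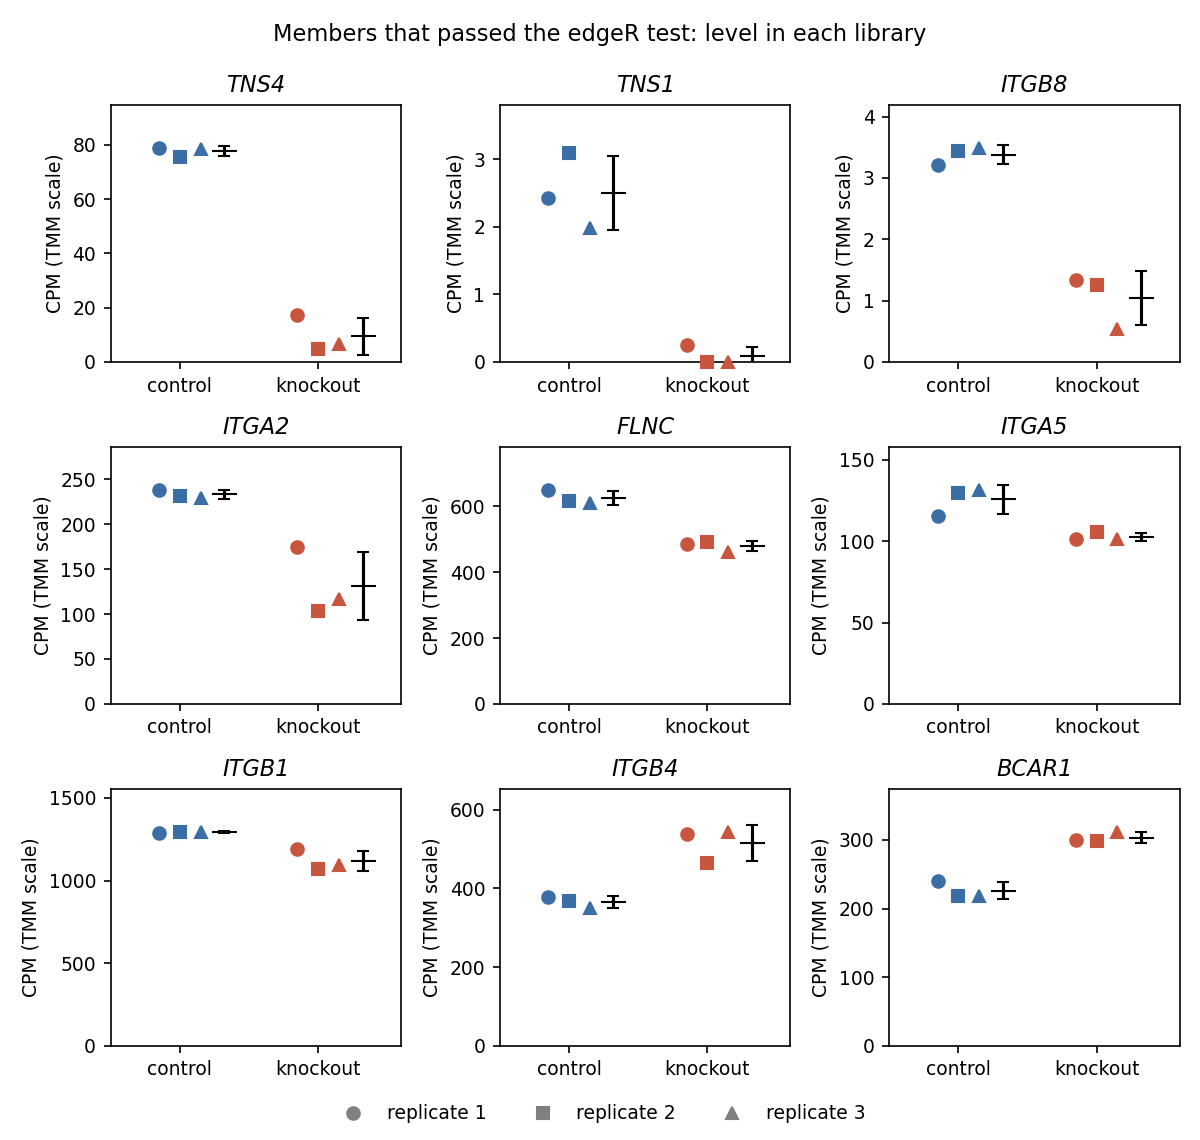
CPM (TMM scale, linear axes from 0) of the 9 members that passed, in each library, with the mean and SD of 3 beside the points (the lower bar of TNS1 ends at the axis). Control and knockout points do not overlap in any of the 9 panels, and knockout replicate 1 is the knockout point nearest the controls for TNS4, TNS1, ITGB8, ITGA2 and ITGB1.

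Among the alpha chains, which choose the matrix ligand, 2 of 7 tested genes fell and 0 rose. Those that passed are 28.6% of this small group, beside 12.1% of all tested genes. ITGA2 encodes the alpha chain of the main collagen receptor of epithelial cells (chromosome 5, 52989326 to 53094779, plus strand). Its level was 238, 231 and 229 CPM in the control libraries and 175, 103 and 117 CPM in the knockout libraries. The controls were nearly level, and knockout replicate 1 lay between them and the other knockout libraries. ITGA2 fell 1.77-fold (-0.82 ± 0.16 SE, edgeR adjusted p = 0.0114). The call was lost without control replicate 3 (adjusted p = 0.0512) or knockout replicate 3 (adjusted p = 0.0738).

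ITGA5 encodes the alpha chain of the fibronectin receptor (chromosome 12, 54395261 to 54419460, minus strand). It stood at 116, 130 and 132 CPM in controls and at 101, 105 and 101 CPM in knockouts. The knockout values were close together and just below the lowest control. ITGA5 fell 1.23-fold (-0.29 ± 0.07 SE, edgeR adjusted p = 0.0259). The adjusted p was 0.127 without control replicate 2, 0.140 without control replicate 3 and 0.116 without knockout replicate 3.

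The most abundant alpha chain, the laminin-binding ITGA3, was at 2246 ± 201 and 2351 ± 203 CPM (SD, n = 3) and did not pass (0.07 ± 0.08 SE, edgeR adjusted p = 0.651). ITGA6, the laminin-binding partner of ITGB4, was at 635 ± 7.20 and 648 ± 8.90 CPM (0.03 ± 0.05 SE, adjusted p = 0.760). ITGAV, the partner shared by several beta chains of the vitronectin and TGF-beta-binding receptors, was at 206 ± 16.7 and 216 ± 37.9 CPM (0.07 ± 0.12 SE, adjusted p = 0.744). These 3 chains overlapped between the groups.

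The collagen-binding ITGA1 was low, at 11.4 ± 0.497 and 12.9 ± 2.35 CPM (0.18 ± 0.14 SE, edgeR adjusted p = 0.448). ITGA10, another collagen-binding chain, had 17, 37 and 18 counts in controls and 13, 9 and 15 in knockouts and missed the threshold (-1.03 ± 0.42 SE, adjusted p = 0.147). ITGA4 and ITGA11 had 0 to 4 counts per library and were not tested.

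Per length, ITGA3 held 70.0% ± 2.14 of the summed alpha chain level in controls and 72.5% ± 2.76 in knockouts, and ITGA6 held 16.6% ± 1.18 and 16.8% ± 1.05. Below these, 3 chains lay close together in controls, with ITGA2 at 29.6 ± 0.599, ITGAV at 28.5 ± 2.32 and ITGA5 at 28.3 ± 1.99 CPM per kb, and their order there is within the spread of the replicates. In knockouts ITGAV (29.9 ± 5.26), ITGA5 (23.1 ± 0.555) and ITGA2 (16.7 ± 4.81 CPM per kb) followed in that order. The share of ITGA2 was 4.30% to 4.96% in control and 2.03% to 3.47% in knockout libraries.

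Of the 6 tested beta chains, which carry the tails bound by talin and kindlin, 1 rose and 2 fell. Those that passed are 50% of this small group, beside 12.1% of all tested genes. ITGB4, the long-tailed chain of the hemidesmosome receptor that links laminin to keratin filaments, was the one that rose (chromosome 17, 75721328 to 75757818, plus strand). It stood at 379, 368 and 350 CPM in the control libraries and at 537, 463 and 544 CPM in the knockout libraries. The lowest knockout value was well above the highest control. The rise was 1.41-fold (0.49 ± 0.07 SE, edgeR adjusted p = 0.00340). With the median of its neighbours, 0.10, subtracted it was 0.40 (adjusted p = 0.0122).

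ITGB4 pairs with ITGA6 alone, which did not pass. The per-length ratio of ITGB4 to ITGA6 was 0.518 to 0.558 in control and 0.672 to 0.805 in knockout libraries. The ratio of ITGB4 to ITGB1, the other partner of ITGA6, was 0.172 to 0.187 in control and 0.274 to 0.316 in knockout libraries. Neither ratio overlapped between the groups. The ratio of ITGA5 to ITGB1, which both fell, did overlap, at 0.0796 to 0.0898 in control and 0.0753 to 0.0869 in knockout libraries. A ratio restates the levels of its genes, and the pairs were picked by hand, so ratios add no test of their own.

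ITGB1 is the shared partner of most alpha chains and the most abundant beta chain (chromosome 10, 32900319 to 33005792, minus strand). It was at 1285, 1292 and 1296 CPM in controls and 1189, 1072 and 1094 CPM in knockouts. The controls were almost identical and every knockout library was lower. ITGB1 fell 1.15-fold (-0.21 ± 0.06 SE, edgeR adjusted p = 0.0428), which is close to the threshold. The call was lost without control replicate 1, 2 or 3 (adjusted p = 0.0904, 0.155 and 0.166) and without knockout replicate 2 or 3 (adjusted p = 0.110 and 0.167), with library size scaling only (adjusted p = 0.0616), with limma on the deposited log2 CPM (adjusted p = 0.0515) and after subtraction of its neighbours' median (adjusted p = 0.104).

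ITGB8, an ITGAV partner that binds latent TGF-beta, was rare (chromosome 7, 20330702 to 20415754, plus strand). It had 95, 98 and 88 counts in controls, against 43, 35 and 15 counts in knockouts. The controls were alike and knockout replicate 3 was the lowest. It fell 3.21-fold (-1.68 ± 0.31 SE, edgeR adjusted p = 0.00887), from 3.38 ± 0.152 to 1.04 ± 0.443 CPM (SD, n = 3).

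ITGB5, another ITGAV partner, was at 374 ± 3.80 and 343 ± 4.85 CPM (SD, n = 3) with no overlap, and did not pass (-0.12 ± 0.05 SE, edgeR adjusted p = 0.162). ITGB3, the beta chain of the platelet and vitronectin receptors, was at 6.17 ± 1.68 and 4.86 ± 0.671 CPM and missed the threshold (-0.34 ± 0.22 SE, adjusted p = 0.351). In GENCODE 29, 51.6% of its exon bases are shared with AC068234.1 on the same strand, so its count is uncertain. ITGB2, the leukocyte beta chain, was at 5.76 ± 0.113 and 6.38 ± 0.614 CPM (0.15 ± 0.14 SE, adjusted p = 0.536), and ITGB6 had 0 to 6 counts per library and was not tested.

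Among beta chains the per-length share of ITGB1 was 68.9% ± 0.287 in controls and 63.3% ± 0.979 in knockouts, and that of ITGB4 was 12.4% ± 0.496 and 18.5% ± 1.09. ITGB5 held 17.9% ± 0.184 and 17.5% ± 0.624 (SD, n = 3). ITGB5 was thus above ITGB4 in controls, beyond their spread. In knockouts, at 78.4 ± 1.11 for ITGB5 and 83.3 ± 7.26 CPM per kb for ITGB4, the difference was within the spread of ITGB4.

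**Figure D3:**
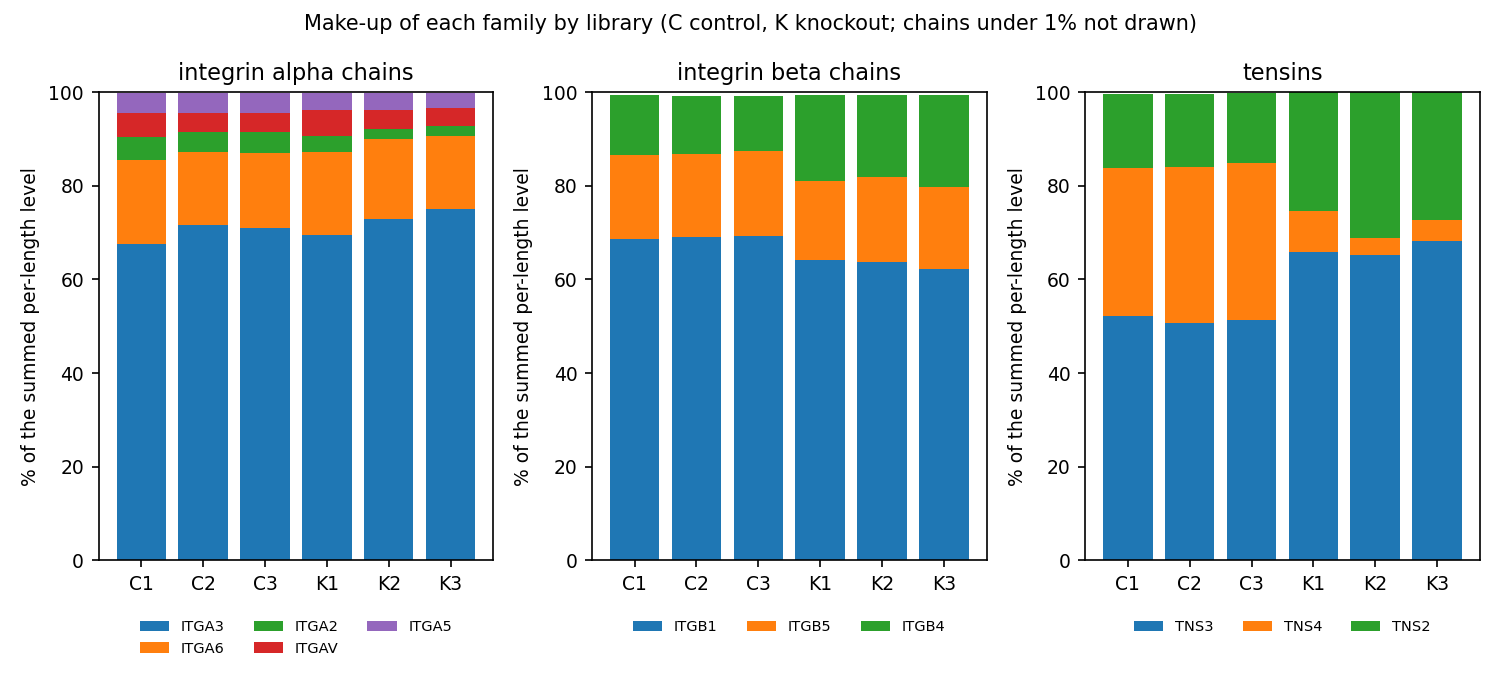
Share of each gene in the summed per-length level (%, y axis) of the alpha chains, beta chains and tensins in each library (C control, K knockout, bars stacked from 0). The orange TNS4 block shrinks from 31.7% to 33.5% in controls to 3.64% to 8.78% in knockouts, and the green ITGB4 block grows from 12.4% to 18.5% on average.

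The talins TLN1 and TLN2 and the kindlin FERMT2, of the proteins that switch integrins to their ligand-binding state, did not pass. TLN1 stood at 1064 ± 8.90 and 1092 ± 34.2 CPM (SD, n = 3; 0.04 ± 0.05 SE, edgeR adjusted p = 0.686). TLN2 was at 53.2 ± 0.769 and 55.7 ± 3.04 CPM (0.07 ± 0.07 SE, adjusted p = 0.600), and FERMT2 at 87.5 ± 2.90 and 91.4 ± 7.26 CPM (0.06 ± 0.08 SE, adjusted p = 0.637). All 3 overlapped between the groups. None passed in DESeq2 or limma-voom either, and 0 of the 3 had an unadjusted edgeR p under 0.05, beside 27.7% of all tested genes.

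The ILK, PINCH and parvin complex is a scaffold on the beta tail. In edgeR and limma-voom 0 of its 3 tested genes passed, and in DESeq2 0 of 4. An unadjusted edgeR p under 0.05 was found for 27.7% of all tested genes and for 1 of these 3. That gene was the PINCH protein LIMS1, at 101 ± 1.24 and 91.5 ± 3.45 CPM (SD, n = 3; -0.15 ± 0.06 SE, edgeR adjusted p = 0.159). LIMS1 has close copies elsewhere in the genome, so its reads may be split. PARVA stood at 246 ± 9.82 and 251 ± 2.25 CPM (0.03 ± 0.06 SE, adjusted p = 0.764). ILK had 7 to 23 counts per library (0.23 ± 0.44 SE, adjusted p = 0.776), and 83.8% of its exon bases lie opposite exons of other genes, chiefly TAF10. The strand setting of the counting is not given, so its level is uncertain. PARVB had 5 to 17 counts per library and was not tested.

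Of the kinase and adaptors, BCAR1 rose and 3 did not pass. BCAR1 is the Cas scaffold that FAK and SRC phosphorylate at adhesions (chromosome 16, 75228187 to 75268053, minus strand). It was at 240, 218 and 219 CPM in controls and 301, 298 and 312 CPM in knockouts. Both groups were tight and well apart. The rise was 1.34-fold (0.43 ± 0.06 SE, edgeR adjusted p = 0.00311). Its 20 nearest tested genes, between 74296814 and 77213215 on chromosome 16, had a median log2 fold change of 0.37, and with this subtracted BCAR1 was at 0.06 and did not pass (adjusted p = 0.617).

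PTK2, which encodes FAK, was at 185 ± 11.2 and 206 ± 9.99 CPM (SD, n = 3; 0.16 ± 0.07 SE, edgeR adjusted p = 0.176), and paxillin, PXN, at 223 ± 7.87 and 246 ± 20.2 CPM (0.15 ± 0.07 SE, adjusted p = 0.221). The groups did not overlap for either. CAV1, a caveola coat protein, was at 1166, 1095 and 1092 CPM in controls and at 1190, 924 and 985 CPM in knockouts. Knockout replicate 1 was the highest of all 6 and the other knockout libraries the lowest. CAV1 did not pass (-0.11 ± 0.09 SE, edgeR adjusted p = 0.448), but did without knockout replicate 1 (-0.23, adjusted p = 0.00595).

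None of the 4 actin linkers passed in edgeR, DESeq2 or limma-voom, although 3 had an unadjusted edgeR p under 0.05, beside 27.7% of all tested genes. Vinculin, VCL, which binds talin under tension, was at 479, 489 and 483 CPM in controls and 514, 539 and 581 CPM in knockouts. All knockout values were above all controls (0.17 ± 0.06 SE, edgeR adjusted p = 0.0993), and VCL passed without knockout replicate 1 (0.21, adjusted p = 0.00887). ACTN1, an alpha-actinin, was at 948 ± 12.9 and 1045 ± 40.5 CPM (SD, n = 3; 0.14 ± 0.05 SE, adjusted p = 0.120), and also passed without that library (adjusted p = 0.0147). ACTN4 was at 1736 ± 69.0 and 1913 ± 120 CPM (0.14 ± 0.06 SE, adjusted p = 0.174). The LIM protein zyxin, ZYX, was at 265 ± 8.97 and 276 ± 14.9 CPM (0.06 ± 0.06 SE, adjusted p = 0.593). With the neighbour medians subtracted VCL was at 0.02 and ACTN1 at 0.08.

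The filamins, large actin crosslinkers that bind beta tails, differed from each other. FLNC, the form best known from muscle, fell (chromosome 7, 128830377 to 128859274, plus strand). It was at 651, 617 and 612 CPM in controls and 487, 492 and 462 CPM in knockouts. All knockout values were well below the controls (1.30-fold lower, -0.38 ± 0.06 SE, edgeR adjusted p = 0.00339). FLNA, the widely expressed form and the most abundant member per length, was at 4634, 4850 and 4858 CPM in controls and 5069, 5503 and 5531 CPM in knockouts. All knockout values were higher, yet FLNA did not pass (0.17 ± 0.05 SE, edgeR adjusted p = 0.0718). It did pass without knockout replicate 1 (0.21, adjusted p = 0.00157), with library size scaling only (adjusted p = 0.0421) and with no filter on low counts (adjusted p = 0.0399), while its neighbours on chromosome X stood at a median of 0.18, which leaves FLNA at -0.01 when subtracted. The per-length ratio of FLNC to FLNA was 0.117 to 0.130 in control and 0.0774 to 0.0889 in knockout libraries, with no overlap. This restates the levels above and adds no test of its own.

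Neighbours of some members, such as BCAR1, were shifted with them, so the 20 nearest tested genes are given for each member that passed. Their median was 0.37 for BCAR1. The neighbour median was within 0.17 of 0 for TNS4 (-0.03), TNS1 (-0.05), ITGB8 (-0.16), ITGA2 (-0.04), ITGA5 (0.10), ITGB1 (-0.04), ITGB4 (0.10) and FLNC (0.01). With it subtracted, 7 of the 9 members still passed. The 2 that did not were BCAR1 and ITGB1.

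Of the 37 members, 30 matched an entry in the RefSeq promoter table (GRCh38.p14). ITGA3, ITGB2, ITGB3, ITGB4, TNS4, PARVA and PTK2 had no entry. TNS4 and ITGB4, which passed, were therefore not searched. The 250 bases before the start in that table were searched on both strands for GGAATG, the core letters of TEAD sites, and for TGANTCA, the AP-1 site, since both factor families are known at adhesion genes. The TEAD letters were in 5 of 30 member windows, beside 11.9% of all 35116 windows in the table. By call, they were in 3 of 6 members that fell and had an entry (FLNC, ITGB1 and ITGA5). They were in 0 of 1 that rose and in 2 of 19 that did not pass. This split rests on few genes and was not tested. It also depends on the threshold, as ITGB1 lost its call in 9 of 17 alternatives and ITGA5 in 4. The AP-1 letters were in 2 of 30 member windows, beside 6.57% of all windows. These were the windows of BCAR1 and, of those that did not pass, ACTN4. The 30 bases around each match in a member that passed are shown 5′ to 3′ on the gene's strand, with the matched letters in capitals (in FLNC on the reverse complement).
FLNC, chr7:128830291-128830320, plus strand: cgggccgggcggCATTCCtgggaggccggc
ITGB1, chr10:32958395-32958424, minus strand: cgcggcgggagaGGAATGcgtttccggagg
ITGA5, chr12:54419331-54419360, minus strand: tccagggacccaGGAATGcccccccgccag
BCAR1, chr16:75268053-75268082, minus strand: ataggacggagTGAGTCAtcctgggatcat
The matches lie 103, 182, 82 and 64 bases before the RefSeq start in that order. RefSeq starts differ from the outermost GENCODE 29 starts printed above. The RefSeq start lies inside the GENCODE gene by 47562 bases for ITGB1, 23707 for TNS1, 198 for ITGB8, 194 for ITGA5, 46 for BCAR1, 29 for FLNC and 26 for ITGA2, so the windows of these genes lie wholly or partly inside the printed spans and other starts were not searched. Neither run of letters was in the RefSeq windows of TNS1, ITGB8 and ITGA2. Of 3 other motifs searched, the GC box GGGCGG was in 19 of 30 member windows (42.6% of all windows), the E-box CACCTG in 5 of 30 (17.5%) and the TATA box TATAAA in 1 of 30 (10.7%). A match is a description of the letters only.

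Genes that work with the members, taken from 5 lists, were read from the same fit. Of 51 tested genes of the adhesion complex outside the members, 5 rose, 9 fell and 37 did not pass (27.5% passed, beside 12.1% of all genes, with a median log2 fold change of -0.01 against 0.00). APBB1IP, the RIAM protein that brings talin to the membrane, rose from 17.5 ± 1.91 to 38.0 ± 6.48 CPM (SD, n = 3; 1.12 ± 0.14 SE, edgeR adjusted p = 0.00139). FERMT3, the kindlin of blood cells, rose from 1.30 ± 0.272 to 3.77 ± 0.977 CPM (1.52 ± 0.27 SE, adjusted p = 0.00747). NEDD9, a Cas relative of BCAR1, fell from 73.3 ± 1.91 to 38.4 ± 10.9 CPM (-0.93 ± 0.16 SE, adjusted p = 0.00690). ENAH, an actin-elongating protein that binds zyxin, fell from 50.3 ± 2.22 to 34.5 ± 3.39 CPM (-0.54 ± 0.09 SE, adjusted p = 0.00555), and with its neighbour median subtracted the value was -0.32 (adjusted p = 0.0606).

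The other risers, named after their values were seen, were GIT2 (0.36), DLC1 and PTK2B. DLC1 was at 0.25 and, less its neighbours' median, at 0.05 (adjusted p = 0.696), and PTK2B (0.44, edgeR adjusted p = 0.0495) passed in 7 of 17 alternatives. The epithelial kindlin FERMT1, also singled out afterwards, fell from 28.0 ± 3.46 to 15.0 ± 3.99 CPM (SD, n = 3; -0.90 ± 0.18 SE, edgeR adjusted p = 0.0118). Its neighbours on chromosome 20 stood at a median of -0.39, and the difference from that was -0.50 (adjusted p = 0.119). Of the kindlins, FERMT3 thus rose from a low level, FERMT1 fell and FERMT2 did not pass. The rest of the list that fell, also named afterwards, were EVL (-0.72), LPXN (-0.70), PDLIM5 (-0.50), NEXN (-0.44), PALLD (-0.41) and PDLIM1 (-0.39). Of these, NEXN passed in 9 of 17 alternatives, and PALLD and PDLIM1 in 10 each. The list count was 8 without control replicate 1, 6 without control replicate 2, 5 without control replicate 3 and 4 without knockout replicate 3, where 7.31%, 4.48%, 3.79% and 3.61% of all genes passed, and 22 without knockout replicate 1, where 23.8% did.

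FERMT3 and APBB1IP are known from blood cells, and of the 4 tested leukocyte markers LAPTM5, LCP1 and SPN rose and CD14 did not pass. The 6 counted markers summed to 69.8 to 73.0 CPM in control and 214 to 227 CPM in knockout libraries. The pan-leukocyte gene PTPRC was at 0.140 to 0.238 CPM in control libraries and at 0 in all 3 knockout libraries, and the leukocyte integrin chains ITGAL, ITGAM, ITGAX and ITGAD had too few counts to test.

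Of the other integrin chains 2 of 10 were tested and neither passed in edgeR or limma-voom, nor any of 3 in DESeq2, with 0 at an unadjusted edgeR p under 0.05. ITGAE was at 24.1 ± 1.77 and 24.2 ± 2.24 CPM (SD, n = 3; 0.01 ± 0.10 SE, edgeR adjusted p = 0.976) and ITGA7 was under 1 CPM in every library.

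Of 34 tested integrin ligands 1 rose, 8 fell and 25 did not pass (26.5% passed, beside 12.1% of all genes), with a median log2 fold change of -0.09 against 0.00 for all genes. THBS2, a thrombospondin, was at 17.2, 25.0 and 23.0 CPM in controls and 2.15, 5.43 and 6.06 CPM in knockouts. All knockout libraries were far below the controls (-2.27 ± 0.31 SE, edgeR adjusted p = 0.00217). The more abundant THBS1 fell as well (-0.62 ± 0.11 SE, adjusted p = 0.00909), as did LTBP1, which anchors latent TGF-beta in the matrix, from 59.9 ± 2.98 to 46.2 ± 1.23 CPM (-0.38 ± 0.07 SE, adjusted p = 0.0107). The laminin chain LAMA4 rose (2.54 ± 0.27 SE, adjusted p = 0.000726). The count of 9 was 5 without control replicate 1, 3 without control replicate 2 or 3 and 2 without knockout replicate 3, where 7.31%, 4.48%, 3.79% and 3.61% of all genes passed. It was 16 without knockout replicate 1, where 23.8% of all genes passed, and 14 with no filter on low counts, where 10.1% did.

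Fibronectin, FN1, named here as the ligand of ITGA5 and not by its p, did not pass (-0.16 ± 0.12 SE, edgeR adjusted p = 0.456). Of the 9 genes of hemidesmosomes and tetraspanins, which flank laminin-binding integrins in the membrane, CD82 rose and CD81 and CD151 fell. These 3 are 33.3% of that list, beside 12.1% of all tested genes. CD82, a tetraspanin known as a metastasis suppressor, was at 223, 227 and 221 CPM in controls and 314, 314 and 323 CPM in knockouts, with tight groups far apart (0.50 ± 0.05 SE, edgeR adjusted p = 0.000783). CD151, the direct partner of ITGA3 and ITGA6, fell from 336 ± 25.0 to 269 ± 13.5 CPM (-0.32 ± 0.07 SE, adjusted p = 0.0194), and CD81 from 273 ± 16.8 to 219 ± 2.81 CPM (-0.32 ± 0.06 SE, adjusted p = 0.0125).

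With the neighbour medians of chromosome 11 subtracted, CD151 was at -0.14 (adjusted p = 0.277) and CD81 at -0.02 (adjusted p = 0.886), and neither passed. Without control replicate 2, control replicate 3 or knockout replicate 3 only CD82 of this list passed. Of 7 tested caveola genes 0 passed in edgeR, with 2 (28.6%) at an unadjusted p under 0.05, a share close to the 27.7% of all tested genes. DESeq2 passed 1 of 8 (12.5%, beside 13.6% of all genes) and limma-voom 0 of 7 (beside 12%). In edgeR 3 of 7 caveola genes passed without knockout replicate 1, where 23.8% of all genes did. CAV2, the partner of CAV1, was at 292 ± 0.227 and 242 ± 29.3 CPM (-0.27 ± 0.08 SE, edgeR adjusted p = 0.0627) and PACSIN3 at 68.4 ± 3.05 and 56.0 ± 6.43 CPM (-0.29 ± 0.09 SE, adjusted p = 0.0727).

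**Figure D4:**
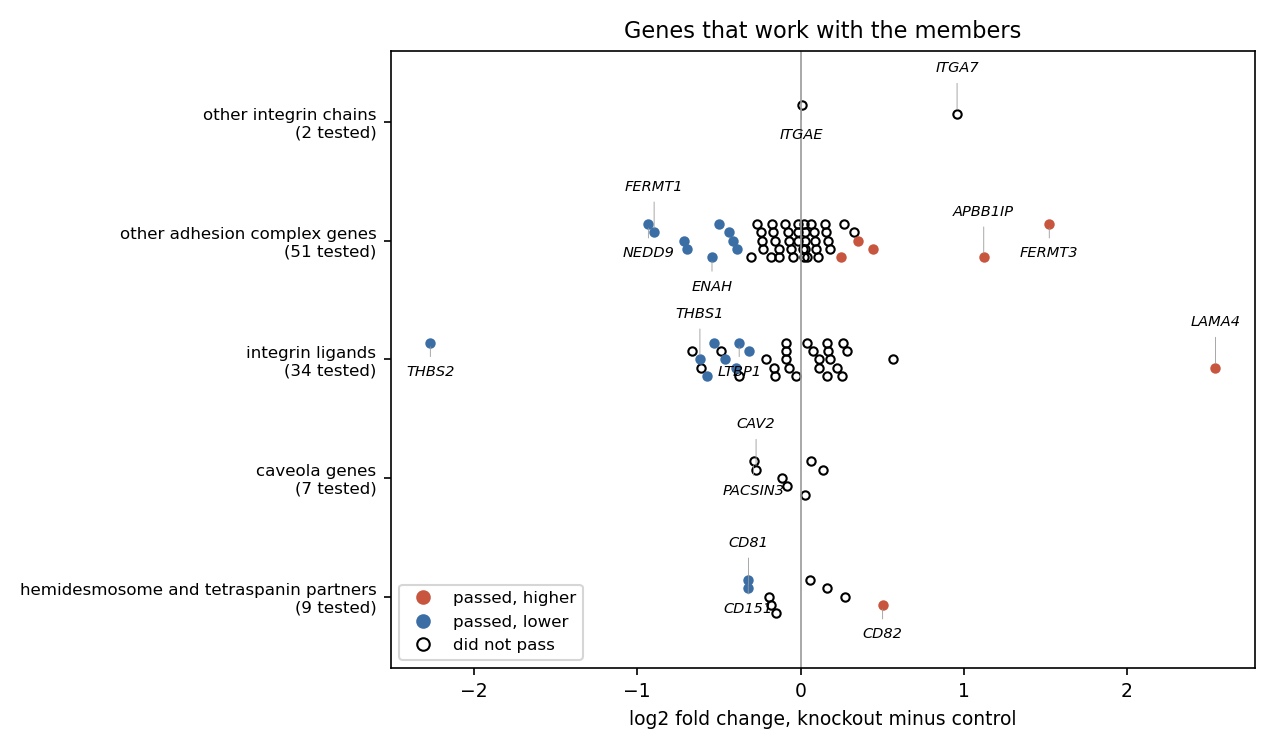
Log2 fold change (x axis) of every tested gene in 5 lists of partners of the members, with genes that passed in colour and the named ones labelled. LAMA4 (2.54) and THBS2 (-2.27) lie at the ends and the caveola genes and other integrin chains have no coloured point.

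The 9 members that passed held to different degrees under the alternatives. TNS4 and TNS1 kept an adjusted p under 0.05 in all 17 alternatives, including the test against a 1.5-fold change, where 2 members passed. ITGB4, ITGB8 and FLNC lost it only in that test. ITGA2, ITGA5 and ITGB1 also lost it when single libraries were left out, and BCAR1 when its neighbours' median was subtracted.

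**Figure D5:**
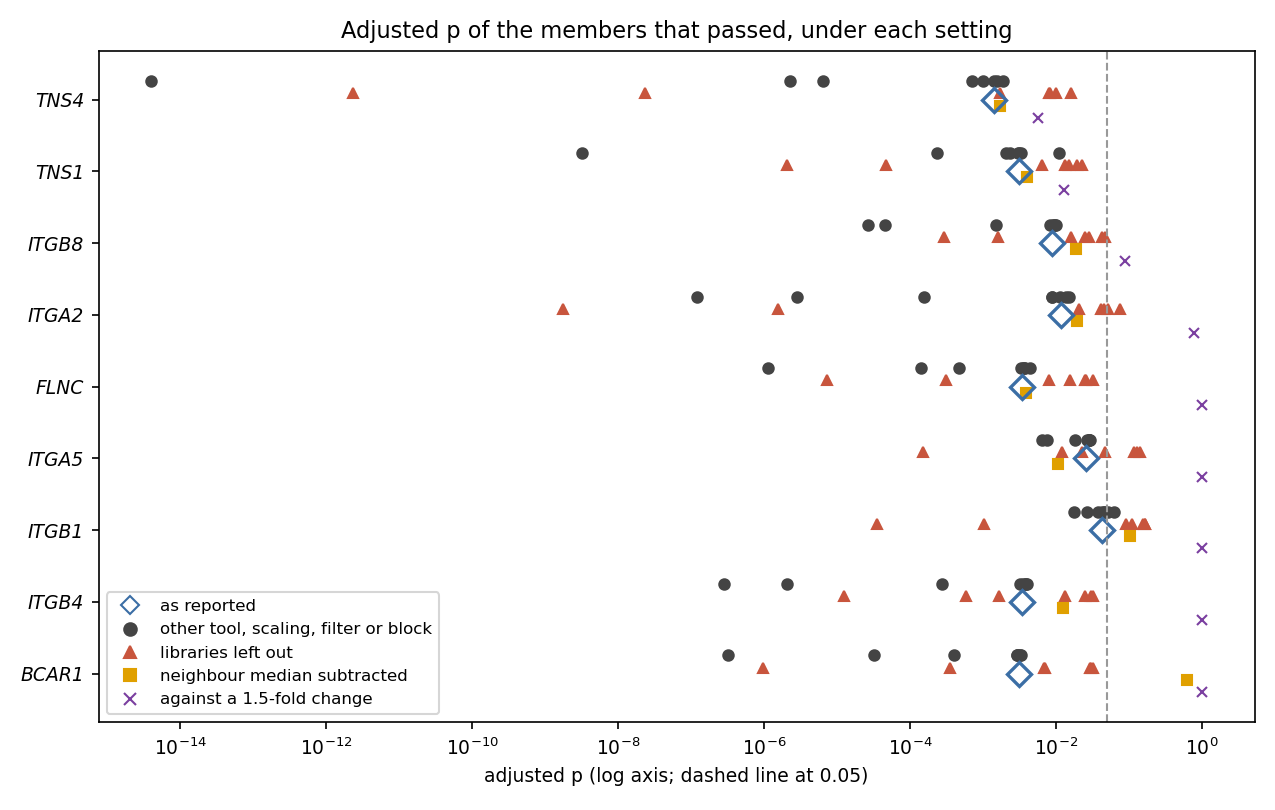
Adjusted p (log axis, dashed line at 0.05) of the 9 members that passed, as reported (open diamonds) and under each alternative. All points of TNS4 and TNS1 lie left of the line, 9 points of ITGB1 lie right of it, and the yellow square of BCAR1, with its neighbours' median subtracted, lies at 0.617.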

How the data were processed

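The authors deposited whole-number counts per gene symbol for 6 libraries and a table of log2 CPM values, with its filter and prior count unstated. The tools named are FastQC and STAR (version 2), with GRCh38 as the genome, per the submitters' processing notes. No source used here gives the counting tool or the annotation.

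The counts were tested with edgeR 4.0.16 in R 4.3.3 (filterByExpr, TMM, quasi-likelihood F test, group only, two-sided, 14199 genes). The standard error is the log2 fold change divided by the square root of F. Levels are CPM on the TMM scale, and per-length levels divide them by merged exons of GENCODE 29. Positions for neighbours (10 on each side, 14086 genes) come from RefSeq. Alternatives included DESeq2 1.42.0, limma 3.58.1 (voom, and trend on the deposited log2 CPM), other scalings and filters, glmTreat and left-out libraries. The test was checked on simulated counts drawn independently for each library, so that check does not cover the deviation of replicate 1.

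The members, lists and motifs were chosen with earlier results of these data known. All 37 members are named. From each partner list up to 4 genes that passed with the smallest p are named, or up to 2 where none passed. Genes named outside this rule are marked in the text.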

Additional observations from a re-analysis of the deposited data

How the results depend on the processing

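The count of members that passed was 9 and stayed between 7 and 12 with other scalings, filters and tools, the neighbour median subtracted and the replicate block. It was 2 against a 1.5-fold change, 6 to 14 with single libraries left out, and 20 without replicate 1 in both groups, an alternative chosen after seeing the data. Over all genes 1718 passed. This became 153 (1.08%) against a 1.5-fold change, 1056 (7.5%) with the neighbour median subtracted and 3099 (21.8%) with the replicate block. It was 524 (3.61%) to 3430 (23.8%) with single libraries left out, and 4312 (30.4%) without replicate 1 in both groups. None of the 9 members reversed in any of these settings. Same-numbered libraries of the 2 groups had deviations from their group means that correlated at 0.32, 0.14 and 0.09 for replicates 1, 2 and 3. Replicate 1 of either group correlated negatively with replicates 2 and 3 of the other group (-0.24 to -0.15). Deviations within a group cancel out for each gene, so these negative values follow largely from the 0.32 and add no evidence. Control replicate 3 correlated slightly better with knockout replicate 2 (0.14) than with knockout replicate 3. By the 0.32 alone, replicate 1 deviated partly alike in both groups, while numbers 2 and 3 did not mark pairs. The main fit did not take the numbers to pair the samples. With the replicate block 12 members passed, adding TNS2 (adjusted p = 0.0363), TNS3 (0.0383) and FLNA (0.0266). The median of all genes moved by at most 0.01 between scalings. With 3 passages a group, small differences such as that of ITGB1 lie at the limit of detection, and ITGA4, ITGA11, ITGB6 and PARVB were removed by the filter on low counts. With no filter all 37 members were tested and 10 passed, beside 10.1% of all genes tested that way.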
